A study of Mus musculus with 2 samples.

Results

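The TripleTg prostate tumour library held 1057 alpha-defensin-high luminal cells, 15.4% of the 6869 cells that passed the luminal gates and 11.1% of the 9492 cells of that library. A cell passed the gates with at least 1 UMI (unique molecular identifier, 1 counted transcript molecule) of Epcam, the epithelial adhesion molecule, no UMI of Ptprc, the leukocyte antigen CD45, and fewer than 20 UMIs of the basal keratins Krt5, Krt14 and Krt15 per 10000 UMIs of the cell. Gated cells with at least 50 UMIs per 10000 from Defa21, Defa22, Gm15293, Gm14850, Gm10104 and Defa5 together formed the high group, those with fewer than 10 formed the low group of 4452 cells, and the 1360 cells between were kept apart as intermediate. The cells were thus selected on the levels of these 6 genes, so alpha-defensin levels between the groups are a description and no result.

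Single-cell RNA sequencing with a 3′ droplet kit was run on dissociated prostate tissue of 2 mouse genotypes, with 1 library each. DoubleTg mice carried hHGFtg, a human hepatocyte growth factor transgene active in all tissues, and H11 hMET/+, a human MET receptor allele switched on by the PB Cre4 recombinase. TripleTg mice carried the same 3 alleles and Ctnnb1 L(Ex3)/+, an allele from which Cre removes the exon that marks beta-catenin for degradation. According to the study, the DoubleTg tissue held both high-grade intraepithelial neoplasia and cancer, and the TripleTg tissue was cancer. The probasin promoter limits Cre mainly to prostate epithelium, the mice were of a mixed C57BL/6 and C3H SCID background, and neither age nor the number of mice behind a library is stated in the labels. The DoubleTg library kept 10598 cells at a median of 16761 UMIs and the TripleTg library 9492 cells at a median of 20097 UMIs. The high, intermediate and low cells had median depths of 25033, 22864 and 21679 UMIs. With 1 library, cells are not replicates of a condition, so no test between groups was possible, and every interval below covers counting error only. Of the cell barcodes, 29 occurred in both libraries, 5 of them on high cells, 4 on intermediate and 10 on low cells.

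Alpha-defensins are small cationic peptides that kill microbes by disrupting their membranes. In mice they are products of Paneth cells, secretory cells at the base of small intestinal crypts, where they are stored in granules, released into the lumen and processed by the protease matrilysin (Mmp7). Their genes lie in a dense tandem array on chromosome 8, and in Paneth cells their transcription depends on Wnt signalling through beta-catenin and TCF factors. Prostate luminal cells are the secretory lining of the gland; they carry simple-epithelial keratins and, in normal tissue, release seminal fluid proteins under androgen control.

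The promoters of 4 members are shown, 3 rule genes and 1 member without the motif searched, because the TripleTg allele acts through beta-catenin, whose TCF partners bind the core CTTTGA. On the other strand this core reads TCAAAG. Capitals mark each match on either strand. The sequences are from RefSeq on GRCm38.p6 and run from 250 bases before to 50 bases after the annotated start. Defa22 (chr8:21162027-21162326, plus strand) and Defa21 had the same promoter, with 100% identity over the aligned window. Gm10104 (Defa35 in RefSeq; chr8:21064788-21065087, plus strand) was 82.9% identical to it, Gm15293 (Defa41; chr8:21201354-21201653, plus strand) 68.2%, and Gm14851 (Defa38; chr8:21096001-21096300, minus strand), a member with 88 UMIs in the high cells, 62.3%.
Defa22: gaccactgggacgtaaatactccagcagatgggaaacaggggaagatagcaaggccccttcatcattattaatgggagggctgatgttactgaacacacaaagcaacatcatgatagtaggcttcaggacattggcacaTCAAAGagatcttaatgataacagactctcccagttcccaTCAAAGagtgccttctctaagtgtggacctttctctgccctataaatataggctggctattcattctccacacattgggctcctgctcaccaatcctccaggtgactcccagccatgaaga
Gm10104: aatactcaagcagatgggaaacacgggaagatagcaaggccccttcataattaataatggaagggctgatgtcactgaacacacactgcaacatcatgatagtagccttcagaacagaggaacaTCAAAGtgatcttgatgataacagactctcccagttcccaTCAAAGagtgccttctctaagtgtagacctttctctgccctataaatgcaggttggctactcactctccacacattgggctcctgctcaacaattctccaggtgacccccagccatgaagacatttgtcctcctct
Gm15293: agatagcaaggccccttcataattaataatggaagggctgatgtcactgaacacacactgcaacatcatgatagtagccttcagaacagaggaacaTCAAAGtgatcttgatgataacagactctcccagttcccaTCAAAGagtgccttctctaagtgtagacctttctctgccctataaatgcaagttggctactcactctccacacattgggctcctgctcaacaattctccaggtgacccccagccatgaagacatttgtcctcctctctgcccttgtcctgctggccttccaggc
Gm14851: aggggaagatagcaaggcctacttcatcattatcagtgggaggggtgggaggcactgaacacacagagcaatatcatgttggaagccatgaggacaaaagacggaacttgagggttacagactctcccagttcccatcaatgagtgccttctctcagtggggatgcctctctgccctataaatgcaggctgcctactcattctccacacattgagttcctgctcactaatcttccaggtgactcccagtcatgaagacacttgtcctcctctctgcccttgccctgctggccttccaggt

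Of the 28 alpha-defensin features measured, 16 had a promoter entry, and 13 of these 16 held the core, against 16% of all 32851 promoters of the same length. All 5 rule genes with an entry held it; Defa5 had no entry. In the Defa22 promoter the matches start at -111 and -71 from the transcription start, in Gm10104 at -126 and -86, and in Gm15293 at -154 and -114. The letters around the cores of Gm10104 and Gm15293 are the same, and the annotated starts differ. The promoters are copies of one another, so the 13 are not independent matches. The 3 without it, Gm14851, Gm7849 and Gm7861, had 88, 5 and 0 UMIs in the high cells. Though scarce, Gm14851 was higher in the high cells, at 2.75 CPM against 0.0256 CPM (3 UMIs) in the low cells, a log2 ratio of 6.75. Its last 100 transcript bases are 49.1% identical to the nearest member. Of the 13 with the core, 5 were as scarce in the high cells: Defa23, Gm6696, Gm21498, Defa2 and Defa-rs7 had 13, 5, 1, 0 and 0 UMIs. Over the last 100 bases the transcripts of all 5 are 99% or 100% identical to another member, so these counts cannot be read alone. The matches are letters in a window, not measured binding.

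The 28 features lie between 21025545 and 21735471 of chromosome 8 (GRCm38). In the high cells 23 of them had at least 1 UMI and 13 reached 5 CPM (UMIs per 1000000 UMIs of the group). Defa22 led with 5309 CPM in high, 644 in intermediate and 38.3 in low cells, and Defa21 followed with 4213 CPM in high, 545 in intermediate and 35.6 in low cells. Of the other rule genes, Gm10104 had 2040.2 CPM in high, 525 in intermediate and 38.5 in low cells. Gm15293 had 1785 CPM in high, 363 in intermediate and 24.3 in low cells. Gm14850 and Defa5 were less abundant, at 1042 and 715 CPM in the high cells. All 6 rule genes were thus abundant, and each had a UMI in at least 95.3% of the high cells.

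Members outside the rule were abundant in the same cells. Gm15308 (Defa32 in RefSeq) had 3704 CPM in high, 1152 in intermediate and 117 in low cells, and Defa20 had 2563 CPM in high, 697 in intermediate and 80.3 in low cells. Gm21002 had 1330.3 CPM in high, 381 in intermediate and 39.9 in low cells, Gm15315 had 598 CPM in high, 147 in intermediate and 14.1 in low cells, and Gm15284 had 230.3 CPM in high, 23.3 in intermediate and 2.59 in low cells. Defa24 and Defa3 were scarce, at 39.7 and 22.3 CPM in the high cells, and Defa24 had a UMI in 12.9% of them. Together the family made up 2.36% of all UMIs of the high cells, 0.495% of the intermediate and 0.0429% of the low cells, and the high cells held 70.4% of all alpha-defensin UMIs of the library. A high cell had UMIs of a median of 11 family genes. Several members differ by few bases where the kit reads: over the last 100 bases of the transcript Defa21 and Defa22 were 98% identical, Defa20 and Gm15308 99%, Gm15293 and Gm15315 100% and Defa5 and Gm15293 98%, so the split of UMIs between near-identical copies is uncertain, and reads that matched several copies may be missing from the sum as well.

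No gap separated the high cells from the other gated cells. The 6 rule genes gave a median of 107 UMIs per 10000 in the high cells, with quartiles at 70.1 and 177 and a highest cell at 1933, in which 19.3% of all UMIs came from these genes. The 3 cells just inside the limit had 50.01, 50.04 and 50.2 per 10000 and the 3 just outside 49.9, 49.8 and 49.8. Between 45 and 50 lay 87 cells and between 50 and 55 72, so the limit cuts through a slope and marks a range rather than a gap. In DoubleTg, 6357 cells passed the same gates, of which 1 reached 50 and none lay between 10 and 50.

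**Figure D1:**
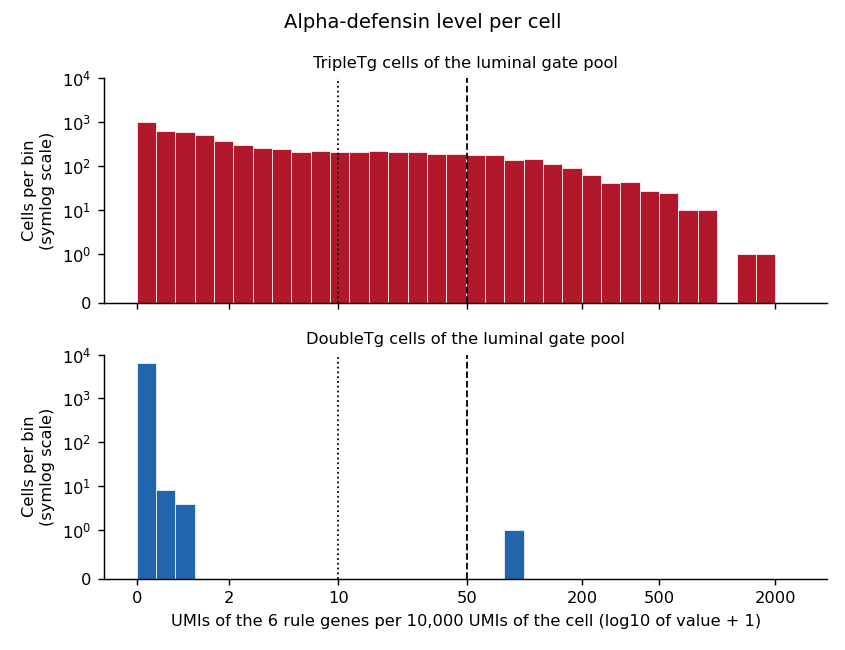
Cells per bin (symlog scale) by UMIs of the 6 rule genes per 10000 UMIs of the cell, for the gated cells of TripleTg (top) and DoubleTg (bottom); the dotted line is at 10 and the dashed line at 50. TripleTg cells fill the bins on both sides of 10 and of 50, with the highest cell at 1933, and all DoubleTg cells but 1 lie below 2.

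Low levels of alpha-defensins occurred in every TripleTg gate, also in those defined by the lack of Epcam UMIs. Summed CPM over the family was 23598 in the high cells, 429 in the low cells, 785 in the basal gate (Epcam positive with basal keratins at 20 or more per 10000), 229 (95% Poisson interval 210.4 to 249.7) in the immune gate (Ptprc without Epcam) and 506 (484 to 528) in the stromal gate (neither gene). At 5000 UMIs per cell, 46.0% of low cells, 44.6% of immune-gate cells and 44.8% of stromal-gate cells had a UMI of the 6 genes (unthinned 81.2%, 72.6% and 59.6% at median depths of 21679, 8524 and 2874 UMIs). The share in low cells was near that of the immune gate, while the family level at 5000 UMIs per cell was 471 CPM in low and 195 in immune-gate cells. In the stromal gate it was 254 CPM at that depth, below the low cells, while the unthinned level lay above them. The source of the UMIs in these gates was not tested. The same family sum in the DoubleTg pool was 10.7 CPM. In the TripleTg cells with both Epcam and Ptprc, which the gates leave out, 70 of 724 reached the level of the high cells.

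The make-up of the family shifted along the range. Defa21 and Defa22 together gave 14.3% of alpha-defensin UMIs in gated cells under 2 per 10000, 24.0% from 10 to 50, 27.8% from 50 to 100 and 52.2% at 500 or more. Gm15308 and Defa20 went the other way, from 51.4% under 2 to 22.2% between 200 and 500, and stood at 27.4% in the 47 cells at 500 or more. Since Defa21 and Defa22 are in the rule and Gm15308 and Defa20 are not, part of this shift follows from how the bands were made. Among members outside the rule alone, the ratio of high to low cells also differed: the log2 ratio was 4.99 for Gm15308, 4.996 for Defa20, 5.40 for Gm15315 and 6.48 for Gm15284. Over its last 100 bases Gm15315 is 100% identical to the rule gene Gm15293, so its UMIs cannot be kept apart from the rule. In the immune gate, Defa21 and Defa22 gave 28.0% (95% exact binomial interval 24.3 to 32.1), above the 17.2% of the low cells.

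**Figure D2:**
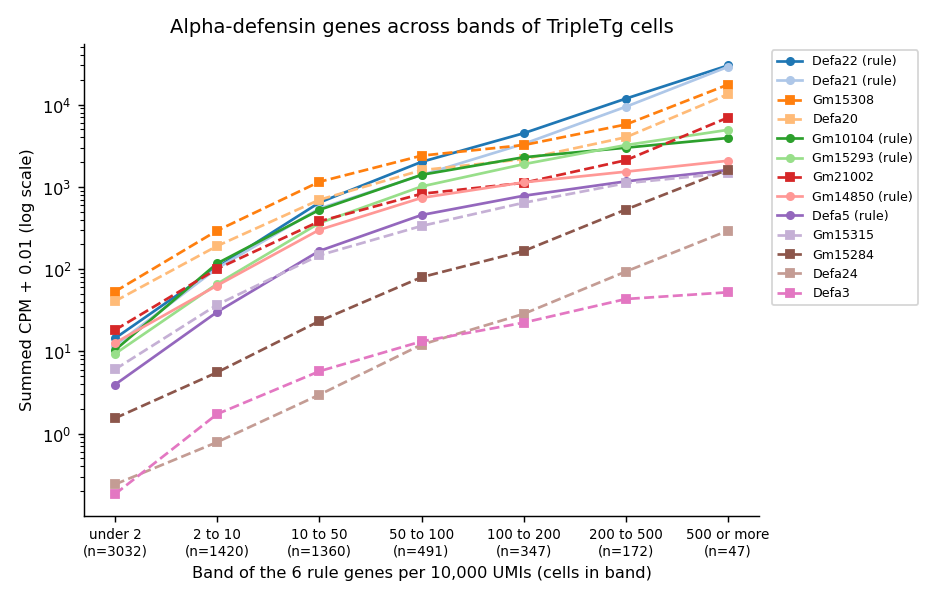
Summed CPM plus 0.01 (log scale) of the 13 alpha-defensin genes with at least 5 CPM in the high cells, over 7 bands of TripleTg gated cells; solid lines are rule genes and dashed lines are not. Defa22 and Defa21 rise above Gm15308 and Defa20 in the upper bands, and Gm15284 and Defa24 climb from near 0.

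Other genes were compared between the high and the low cells. The low group held a set of cells with seminal vesicle secretory genes: Svs2, Svs4 and Svs5, which code for seminal fluid proteins, reached 50 or more per 10000 in 1011 low cells (22.7%) and 80 high cells (7.57%). The count and median of the gene lists that a result turns on are therefore also given without these cells, which left 977 high and 3441 low cells, and with a stricter luminal limit added (Epcam at least 3 UMIs, Krt8 and Krt18 at least 10 per 10000), which left 940 and 2987. Of 8793 genes that reached 5 CPM in the high or the low cells, not counting alpha-defensins, 464 (5.28%) were at least 2-fold higher and 922 (10.5%) at least 2-fold lower in the high cells, and the median log2 ratio was -0.14. Under TMM scaling, which shifts every log2 ratio by 0.22, these counts were 662 and 639, so the excess of lower genes depends on the scaling. Without seminal vesicle cells these were 378 (4.23%) and 1125 (12.6%) of 8941, and with the stricter limit as well 389 (4.47%) and 827 (9.50%) of 8702. These shares are the background for the counts of each gene list below. A gene that reached 5 CPM in the high or in the low cells alone was bound to lean that way, which held for 282 and 901 of all genes measured. List counts and medians are therefore descriptions of the members that reached the limit, and no support for a direction of the whole list.

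The 15 lowest ratios held mostly seminal vesicle secretory genes and ran from Pate4 at 23.2, 314 and 3524 CPM in high, intermediate and low cells to Svs4 at 680.0, 4781 and 41220 CPM, whose log2 ratio was -0.13 once those cells were left out. The 15 highest ratios outside the family were the same 15 genes with and without those cells, and 6 of them (Tchh, Krt73, Krt33a, Rptn, S100a7a and Crym) are known from hair or cornifying skin. Tchh, which codes for trichohyalin, the granule protein of the hair inner root sheath, had 589 CPM in high, 59.5 in intermediate and 14.2 in low cells, a log2 ratio of 5.37 (95% counting interval 5.30 to 5.45). Krt73, an inner root sheath keratin, had 75.7, 9.27 and 1.90 CPM in the same order, and Krt33a, a hair shaft keratin, 61.8, 11.1 and 4.65 CPM. These 3 genes sat in few cells: the top 1% of high cells held 77.8% of the Tchh, 68.8% of the Krt73 and 65.8% of the Krt33a UMIs. With every cell weighted equally the log2 ratio of Tchh was 4.15, and Tchh had a UMI in 34.4% of high, 12.1% of low and 4.78% of immune-gate cells.

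Others of the 15 highest were detected in more of the high cells. Golga7b had a UMI in 62.8% of high and 7.91% of low cells (at 5000 UMIs per cell 33.4% and 2.43%), with 126 CPM in high, 43.4 in intermediate and 5.23 in low cells. Fam25c had 865 CPM in high, 288 in intermediate and 54.99 in low cells and a UMI in 83.8% of high cells. Fabp4, a fatty acid carrier best known from adipocytes, had 1409.9 CPM in high, 260.0 in intermediate and 69.6 in low cells, a log2 ratio of 4.34 (95% counting interval 4.31 to 4.37). Lypd2, a Ly6-domain gene, had 131, 79.3 and 10.9 CPM, and Vnn1, the pantetheinase vanin, 55.6, 21.2 and 3.25 CPM. Plb1, a phospholipase, had 159.7, 62.8 and 13.4 CPM, Aoc1, the diamine oxidase that breaks down histamine, 88.2, 42.8 and 6.17 CPM, Kcnmb2, a potassium channel subunit, 61.2, 27.1 and 5.29 CPM, and Mmp20, the enamel metalloprotease, 66.7, 35.7 and 6.30 CPM. All 15 kept a log2 ratio above 1 under each of 14 alternative settings, the lowest being 2.29.

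The epidermal differentiation complex, a stretch of chromosome 3 (90511034 to 93526287, GRCm38) that holds cornified envelope and S100 genes, was examined after Tchh, Rptn and S100a7a from it had been seen among the highest ratios, so its count is no independent evidence. Of its 74 protein-coding features 28 reached 5 CPM, and of these 19 were at least 2-fold higher and 4 at least 2-fold lower, with a median log2 ratio of 1.40. Leaving out seminal vesicle cells gave 16 higher and 3 lower, median 1.23, and the stricter limits in addition 17 higher and 3 lower, median 1.34. Of the 28, 4 reached 5 CPM in the high cells alone and 1 in the low cells alone. Prr9, a proline-rich gene of the complex, had 10257 CPM in high, 5633 in intermediate and 1796 in low cells, a log2 ratio of 2.51 (95% counting interval 2.51 to 2.52). Sprr2a3, a small proline-rich envelope protein, had 3477, 2892 and 1421 CPM. S100a14 had 1272, 693 and 244 CPM, S100a7a, the mouse psoriasin relative, 249.97, 64.0 and 9.63 CPM, and Rptn, which codes for repetin, 158, 34.6 and 10.7 CPM. Members of the same complex also lay lower: Sprr1a had 273, 287 and 648 CPM and Ivl, which codes for involucrin, 44.6, 60.3 and 113 CPM. Sprr2f, lower at 24.9, 33.5 and 396 CPM, had a log2 ratio of -0.067 without the seminal vesicle cells.

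Of 30 hair follicle genes, a list also drawn up after Tchh and Krt73 were seen, 12 reached 5 CPM and 11 were at least 2-fold higher, with a median log2 ratio of 2.74. The count was 10 higher and 0 lower, median 2.49 without seminal vesicle cells, and 10 higher and 0 lower, median 2.62 with the stricter limits as well. Of the 12, 5 (Krt73, Krt33a, Dsg4, Tgm1 and Dlx3) reached 5 CPM in the high cells alone. Several other hair follicle keratins were absent or nearly so. Krt71, Krt74, Krt26 and Krt82 had 0 CPM both in the high cells with 2 or more Tchh UMIs and in those with none. In the same order Krt25 had 0 and 0.112 CPM and Krt27 0.719 and 0 CPM. Crym, a thyroid hormone-binding crystallin, had 226 CPM in high, 71.4 in intermediate and 16.9 in low cells. Dsg4, the desmoglein of the hair shaft, had 32.0, 13.1 and 2.44 CPM, and a UMI in 45.5% of high and 3.95% of low cells, against 0 of the 230 immune-gate cells, whose median depth was 8524 UMIs. Tgm3, the transglutaminase that crosslinks hair and envelope proteins, had 225, 106 and 22.7 CPM, and Krt36, a hair keratin, 47.5, 30.9 and 10.6 CPM. The homeobox factors Dlx3 and Msx2, which act in hair differentiation, had 19.0, 14.7 and 4.91 CPM and 31.6, 17.6 and 9.97 CPM. Of the 16 keratinocyte transcription factors measured, listed after the data were seen as well, 5 were at least 2-fold higher and none lower: Dlx3, Elf5 (229, 136 and 71.5 CPM), Msx2, Grhl3 (22.4, 12.1 and 7.79 CPM) and Elf3 (230.3, 181 and 93.5 CPM). Without seminal vesicle cells the same count gave 5 higher and 0 lower, median 0.64, and with the stricter limits added 5 higher and 0 lower, median 0.62. Klf4 and Foxq1 were level, with log2 ratios of 0.067 and -0.017.

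The list of squamous and cornified genes was mixed. Of 9 members at 5 CPM or more, 3 were at least 2-fold higher and 2 at least 2-fold lower, with a median log2 ratio of 0.47. Leaving out seminal vesicle cells gave 2 higher and 2 lower, median 0.17, and the stricter limits in addition 4 higher and 2 lower, median 0.84. Sbsn (suprabasin), Sprr2a3 and Krt6a were the higher ones and Sprr1a and Ivl the lower ones. Krt10, the keratin of differentiating epidermis, had 13.0, 10.3 and 9.86 CPM, and Krt16, a keratin of stressed skin, 69.0, 66.6 and 74.0 CPM.

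**Figure D3:**
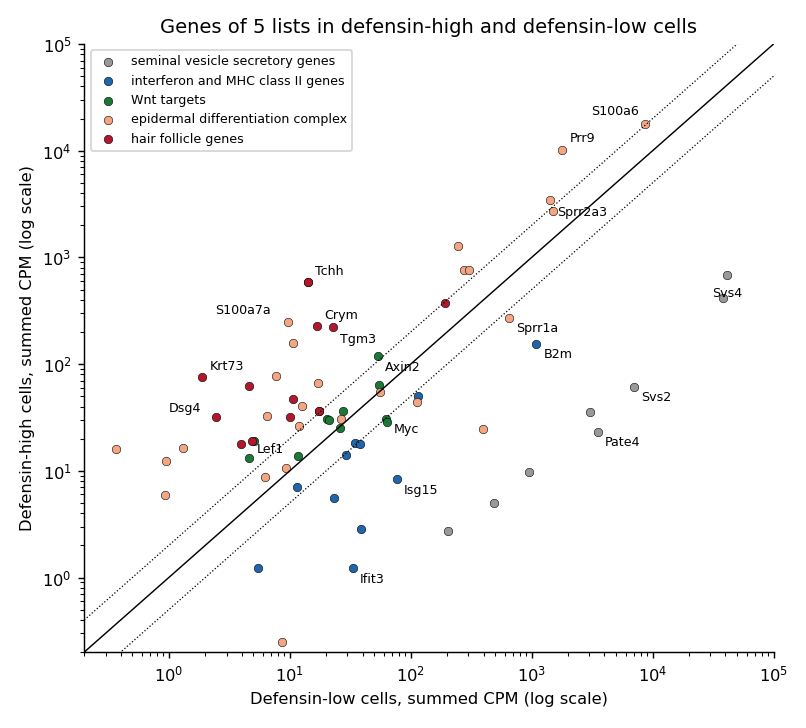
Summed CPM of genes in 5 lists in the low cells (x, log scale) and the high cells (y, log scale); the solid line is equality and the dotted lines are 2-fold. Hair follicle genes and most epidermal differentiation complex genes lie above the line, for example Tchh at 589 against 14.2, while interferon genes, seminal vesicle genes and 4 genes of the complex lie at least 2-fold below it or near it.

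Several of these genes followed the alpha-defensin level through the whole range, from gated cells under 2 per 10000 to those at 500 or more. Prr9 had 1374, 2979.6, 5633, 8366, 10482, 14162 and 16548 CPM in the 7 bands. Fabp4 went from 55.6 to 4878 CPM and Nkd2 from 1.15 to 41.3 CPM, each higher in every band than in the one before. Tchh did not: it peaked at 1194 CPM between 200 and 500 and had 205 CPM in the 47 cells at 500 or more. In the other direction Lcn2 went from 1279.5 to 25.7 CPM, and Krt8, a defining luminal keratin, from 5035 to 2305 CPM. Median depth per band ran from 17378 to 26615 UMIs without following the order of the bands, and each UMI of an alpha-defensin lowers the CPM of all other genes in a cell. The share of seminal vesicle cells went from 22.3% in the lowest band to 8.76% between 50 and 100 and 2.13% in the highest, and that of cycling cells from 23.1% to 2.13%. The part of either in the band values was not tested.

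**Figure D4:**
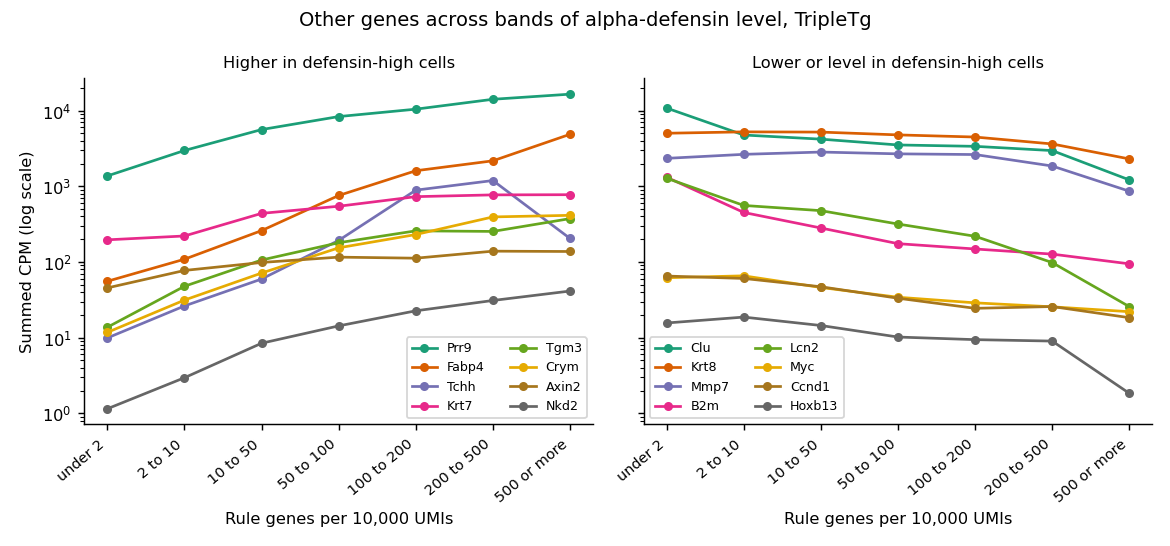
Summed CPM (log scale) of 16 genes over the 7 bands of alpha-defensin level in TripleTg gated cells. Prr9, Fabp4, Crym and Nkd2 climb through all bands, Tchh drops in the last, and Lcn2 and B2m decline throughout.

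The high cells differed among themselves in part of the hair genes. Tchh had at least 2 UMIs in 196 of them, 1 UMI in 168 and none in 693; this division was made after the data were seen, and the first set was deeper, at a median of 41112 against 22565 UMIs in the last. Krt73 had 278 CPM in the cells with 2 or more Tchh UMIs and 4.42 in those with none, Crct1, a cornified envelope gene, 261 and 14.8, Crym 588 and 93.6, and Fabp4 3182 and 681. Most Tchh and Krt73 UMIs lay in the top 1% of high cells for each gene, as given above, so the Krt73 sums lean on few cells. Other hair genes followed Tchh little or not at all: Dsg4 had 40.7 and 27.4 CPM, Msx2 38.2 and 28.6, and Krt36 43.5 and 51.6. The epithelial beta-defensin Defb1 had 361 and 90.9 CPM and the alpha-defensin Defa24 85.8 and 25.5. Ltf (lactoferrin) and Nkd1 lay the other way, at 461 and 941 CPM and at 38.7 and 74.1 CPM. The median level of the 6 rule genes was 134 per 10000 in the first set and 101 in the last.

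Since TripleTg carries an activated beta-catenin allele, the high cells were compared with the low cells for Wnt targets. Of 11 Wnt targets at 5 CPM or more, 3 were at least 2-fold higher and 2 at least 2-fold lower, with a median log2 ratio of 0.41. The count was 2 higher and 2 lower, median 0.14 without seminal vesicle cells, and 2 higher and 1 lower, median 0.21 with the stricter limits as well. Lef1, counted as higher, was the only 1 of the 11 to reach 5 CPM in the high cells alone. Axin2, the feedback inhibitor used most often as a readout of beta-catenin, had 119 CPM in high, 98.6 in intermediate and 53.8 in low cells, a log2 ratio of 1.14 (95% counting interval 1.08 to 1.20); without the seminal vesicle cells it was 0.89. Lef1, a TCF-family factor, had 13.0, 10.9 and 4.61 CPM and Apcdd1, a membrane inhibitor, 19.0, 13.6 and 5.02 CPM. Rnf43 and Znrf3, the ligases that remove Wnt receptors, had 30.0, 29.0 and 21.1 CPM and 30.4, 28.5 and 20.5 CPM, and Notum, a Wnt deacylase, 36.6, 39.4 and 27.6 CPM. Nkd1, Tcf7 and the R-spondin receptor Lgr5 lay within 2-fold, with log2 ratios of 0.21, -0.048 and 0.22. Myc and Ccnd1 were the lower ones, at 30.6, 46.0 and 62.9 CPM and 28.5, 47.1 and 64.0 CPM.

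All 9 of these targets other than Myc and Ccnd1 were also above the DoubleTg pool in the low cells, for example Axin2 at 53.8 CPM against 1.96 and Nkd1 at 54.8 against 1.94.

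Of 23 other Wnt pathway genes at 5 CPM or more, 5 were at least 2-fold higher and 2 at least 2-fold lower, with a median log2 ratio of 0.25. Without seminal vesicle cells the same count gave 4 higher and 2 lower, median 0.065, and with the stricter limits added 5 higher and 1 lower, median 0.15. Of the 23, 4 reached 5 CPM in the high cells alone, Nkd2, Wnt10a and Wnt11 among them, and 3 in the low cells alone. Nkd2, which binds Dishevelled, was at 20.7 CPM in high, 8.43 in intermediate and 1.62 in low cells, a log2 ratio of 3.67 (95% counting interval 3.43 to 3.91). The ligand genes Wnt6, Wnt10a, Wnt11 and Wnt5a were the other higher members, at 67.4, 52.7 and 17.3 CPM, 13.1, 5.42 and 3.64 CPM, 12.0, 8.04 and 4.603 CPM and 58.0, 44.7 and 25.6 CPM. Wnt4 and Wnt7b lay just within 2-fold, with log2 ratios of 0.98 and 0.78. The secreted antagonist Wif1 had 209, 146 and 116 CPM. Sfrp1 and Sfrp2, secreted antagonists typical of stroma, were the lower ones, and with the stricter luminal limits Sfrp1 had a log2 ratio of -0.50. Ctnnb1 itself had 260.2, 247 and 201 CPM.

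Products of Paneth cells other than alpha-defensins were mostly scarce in the high cells. Of 16 Paneth cell products present as features 7 reached 5 CPM. Lyz1, Ang4, Itln1 and Mptx2, well-known Paneth cell genes, were not among them, with 12, 3, 64 and 0 UMIs in all 1057 high cells. The 7 split into 3 at least 2-fold higher and 3 at least 2-fold lower, with a median log2 ratio of 0.034. The counts were the same without seminal vesicle cells (median -0.22) and with the stricter limits as well (median -0.27). Pla2g2f reached 5 CPM in the high cells alone and 3 members in the low cells alone. Mmp7, the protease that activates alpha-defensins in Paneth cells, was abundant and level at 2483, 2841 and 2426 CPM, and it was higher still in the DoubleTg pool at 4477 CPM. Reg3b and Reg3g, antimicrobial lectins, had 0.376 and 0.219 CPM in high cells and 31.8 and 17.0 in low cells. Higher by over 2-fold were the stress gene Nupr1 (1394, 969 and 485 CPM), Pla2g2f (5.76, 2.88 and 0.803 CPM), a secreted phospholipase that skin also makes, and Pnliprp2, of which the top 1% of cells held 92.99%.

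Of 14 regulators of the Paneth and secretory lineages, 5 reached 5 CPM and none differed by 2-fold: Sox9 had 261, 326 and 402 CPM, Tcf7l2 84.1, 109 and 87.6 CPM, Xbp1 108, 105 and 121 CPM and the ephrin receptor gene Ephb3 43.7, 37.5 and 24.0 CPM. Atoh1, Gfi1 and Spdef had 59, 2 and 8 UMIs in all high cells, and Atoh1, the switch gene of the secretory lineage, had a UMI in 3.97% of high and 1.03% of low cells. The intestinal master factors Cdx1 and Cdx2 had 0 and 1 UMIs. Vil1, which codes for the microvillus protein villin, was the exception among 5 measured intestinal genes at 107 CPM in high, 92.5 in intermediate and 32.4 in low cells, a log2 ratio of 1.73 (95% counting interval 1.66 to 1.80), while Krt20 and Lgals4 were at least 2-fold lower and Cdh17 had 26.3, 37.8 and 42.2 CPM. Of 8 intestinal stem cell markers measured, none was at least 2-fold higher and 2 were at least 2-fold lower. Among these 8, 1 reached 5 CPM in the high cells alone and 3 in the low cells alone. Of the goblet genes, Fcgbp had 16.2, 17.9 and 9.23 CPM, Agr2 3.50, 8.77 and 17.8 CPM, and Muc2 0 UMIs in the high cells.

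The luminal label was checked against 14 luminal keratin and identity genes. All 14 reached 5 CPM, 2 were at least 2-fold higher and none at least 2-fold lower, with a median log2 ratio of 0.11. Leaving out seminal vesicle cells gave 2 higher and 1 lower, median 0.094, and the stricter limits in addition 2 higher and 1 lower, median 0.038. Krt8, Krt18 and Krt19, the simple-epithelial keratins, had log2 ratios of -0.20, -0.038 and 0.082, and Krt8 had a UMI in 99.7% of high cells. Krt7, a keratin of ductal epithelia, and Elf3, an epithelial ETS factor, were the higher ones, Krt7 at 653 CPM in high, 439 in intermediate and 203 in low cells. Hoxb13, the prostate homeobox factor, had 9.45, 14.5 and 16.4 CPM and the pioneer factor Foxa1 50.1, 58.5 and 59.6 CPM. Of the proximal luminal markers, Ly6d, a surface marker of castration-tolerant luminal cells, had 9745 CPM in high, 6994 in intermediate and 2942 in low cells, against 134 CPM in the DoubleTg pool, and Clu (clusterin), a stress chaperone, 3313, 4208 and 9239.8 CPM with a log2 ratio of -1.48 that was -0.73 without seminal vesicle cells. Ly6a and Psca lay within 2-fold.

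Of 12 androgen-regulated genes, 6 reached 5 CPM, and of these 1 was at least 2-fold higher and 3 at least 2-fold lower, with a median log2 ratio of -0.74 (-1.04 when thinned). Of the 6, 3 reached 5 CPM in the low cells alone. Tmprss2, a protease gene induced by androgen, was the higher one at 135, 110.5 and 58.4 CPM. Zbtb16 and Tsc22d3, both steroid-induced, were lower, at 0.782, 2.09 and 5.41 CPM and 4.44, 5.84 and 9.44 CPM. The count was 1 higher and 2 lower, median -0.38 without seminal vesicle cells, and 1 higher and 1 lower, median -0.38 with the stricter limits as well. The log2 ratio of Tsc22d3 was -1.09, and -0.88 with those limits. Spink1, lower at 3.50, 20.6 and 246 CPM, was level without the seminal vesicle cells (log2 ratio 0.027). Pbsn, the probasin gene whose promoter drives Cre, had 0.626, 15.3 and 2.31 CPM, and 1552 CPM in the DoubleTg pool.

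Mucosal defence genes lay on both sides. Of 12 measured, 4 were at least 2-fold higher and 3 at least 2-fold lower, with a median log2 ratio of -0.48. Without seminal vesicle cells the same count gave 5 higher and 4 lower, median -0.66, and with the stricter limits added 5 higher and 4 lower, median -0.45. In this list 1 member reached 5 CPM in the low cells alone. Slpi, a secreted protease inhibitor of mucosa, had 881 CPM in high, 693 in intermediate and 173 in low cells, and Defb1, which lies beside the alpha-defensin array, 166, 85.5 and 51.5 CPM. S100a8 and S100a9, the calprotectin subunits, made by neutrophils and by stressed keratinocytes, had 40.4, 27.6 and 12.5 CPM and 66.2, 109 and 17.1 CPM. Lcn2 (lipocalin) was lower at 240.1, 477 and 1090.0 CPM. Defb50, another beta-defensin near the array, was lower at 8.51, 12.6 and 77.4 CPM, and far more abundant in the DoubleTg pool at 12124 CPM. Of 10 measured genes within 1000000 bases of the array, Defb1 and Defb50 were the only ones past 2-fold.

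Interferon and MHC class II genes were mostly lower. Of 11 measured, 9 were at least 2-fold lower and none higher, with a median log2 ratio of -2.06. Leaving out seminal vesicle cells gave 0 higher and 10 lower, median -1.75, and the stricter limits in addition 0 higher and 6 lower, median -1.55. Of the 11, 3 reached 5 CPM in the low cells alone. Isg15, an interferon-induced ubiquitin-like protein, had 8.32, 30.4 and 76.8 CPM, Ifit1 2.88, 16.5 and 38.5 CPM and Ifit3 1.22, 9.999 and 33.1 CPM. B2m, the MHC class I light chain, had 156 CPM in high, 281 in intermediate and 1092 in low cells, a log2 ratio of -2.81 (95% counting interval -2.85 to -2.77), and -1.75 without seminal vesicle cells. The class II genes H2-Aa, H2-Ab1 and H2-Eb1 had log2 ratios of -1.10, -0.93 and -1.05, and with the stricter luminal limits -0.45, -0.39 and -0.36, and between 73.9% and 80% of immune-gate cells had a UMI of them.

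Of 20 secretory pathway and endoplasmic reticulum stress genes, 6 were at least 2-fold lower and none at least 2-fold higher, with a median log2 ratio of -0.69. The count was 0 higher and 5 lower, median -0.78 without seminal vesicle cells, and 0 higher and 6 lower, median -0.80 with the stricter limits as well. In this list 2 members reached 5 CPM in the low cells alone. The chaperone gene Hspa5 had 963, 1168 and 1810.1 CPM and Xbp1, quoted above, lay within 2-fold. Of 13 proliferation genes measured, 6 were at least 2-fold lower, with a median log2 ratio of -0.94. Without seminal vesicle cells the same count gave 0 higher and 10 lower, median -1.25, and with the stricter limits added 0 higher and 12 lower, median -1.33. Of the 13, 6 reached 5 CPM in the low cells alone. Cells with at least 3 of 15 such genes made up 12.8% of high, 19.4% of intermediate and 22.7% of low cells, at the depths given above. Of 12 immediate early genes 3 were lower, namely Egr1, Fos and Dusp1, which also respond to tissue dissociation. Of 20 nuclear export and ribosome synthesis genes 1 was past 2-fold, and of 13 glycolysis and hypoxia genes 3 were lower; without seminal vesicle cells 2 and 4 were.

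The transgenes were detected in both groups. hMETtg had 34.3, 28.5 and 45.6 CPM and a UMI in 42.6% of high, 30.2% of low and 3.04% of immune-gate cells, with a log2 ratio of -0.41 that was 0.53 without the seminal vesicle cells. hHGFtg had 16.7, 18.3 and 79.7 CPM and the mouse Hgf gene 3.07, 5.19 and 18.6 CPM, both at least 2-fold lower. The mouse Met gene had 47.6, 54.2 and 75.3 CPM. In the DoubleTg pool hMETtg had 477 CPM and hHGFtg 325 CPM; with 1 library per genotype the genotypes were not tested.

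Markers of other cell types moved with the comparison. All 8 seminal vesicle genes were lower, with a summed level of 1231 CPM in high, 10913 in intermediate and 94890.1 in low cells; without the seminal vesicle cells their median log2 ratio was -0.23. Svs4 had a UMI in 100% of immune-gate cells too. All 8 endothelial and 6 of 7 measured fibroblast and smooth muscle markers were lower, with summed levels of 10.9 against 81.2 and 231 against 457 CPM, and with the stricter luminal limits their medians were -0.89 and -0.67, with 2 and 2 genes at least 2-fold lower. All 8 endothelial and 4 of the fibroblast markers reached 5 CPM in the low cells alone. Of 5 measured immune markers S100a8 and S100a9 were higher, and Lyz2, C1qa and Cd68 lay within 2-fold. Of 9 measured basal markers 5 were lower, Krt5, Krt14 and Krt15 being part of the gate, and no neuroendocrine marker reached 5 CPM. The part of these cells and of depth in the differences above was not tested beyond the values given without them.

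**Figure D5:**
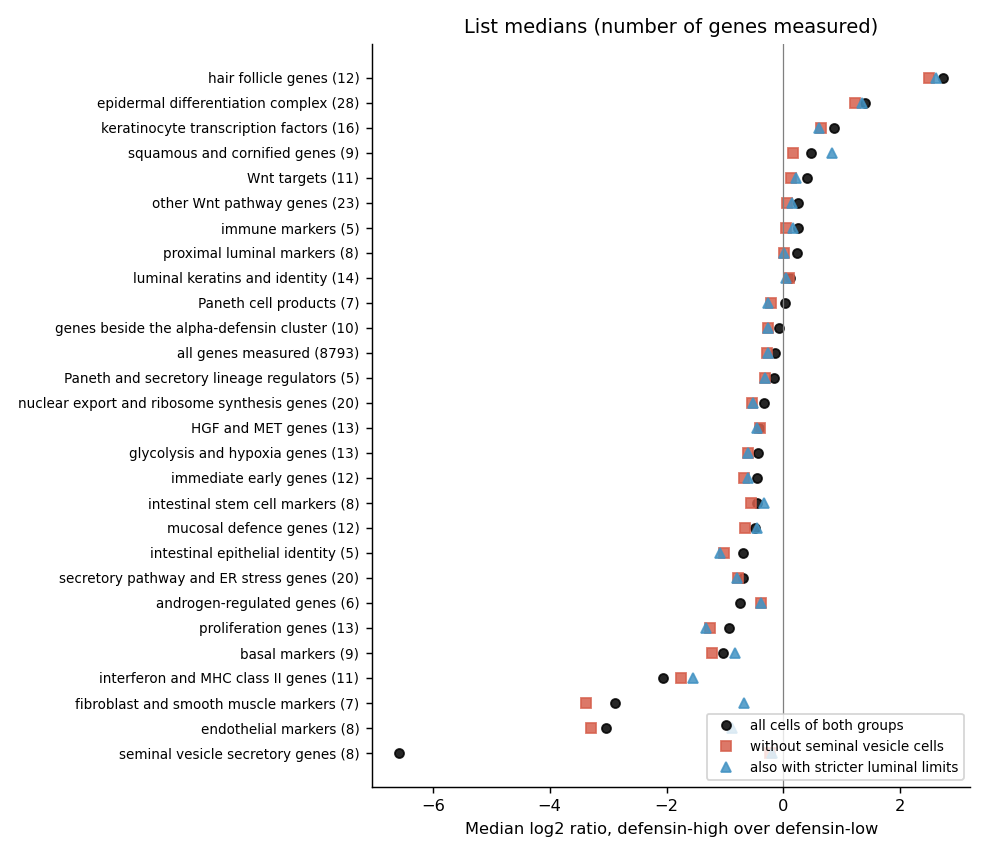
Median log2 ratio of high over low cells for each list with at least 5 measured genes, for all cells, without seminal vesicle cells, and with stricter luminal limits added. Hair follicle genes stand at 2.74 and interferon and MHC class II genes at -2.06, while seminal vesicle genes move from -6.58 to -0.23.

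With the seminal vesicle cells left out and stricter luminal limits, genes lower in the high cells, picked after their values were seen, included Tgm4, the prostate transglutaminase (14.1 against 214 CPM), Defb50 (8.60 against 104), Coch, which codes for cochlin (17.2 against 185), and Ren1, the renin gene (6.40 against 53.6). Collagen genes such as Col1a1, lower before, had a log2 ratio of -0.67 there.

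Several genes that marked the high cells were nearly absent from the DoubleTg pool of 6357 cells. Golga7b had 5 UMIs, Rptn 1, Aoc1 8 and Krt73 none among 202654185 UMIs. For a count of 0 there the upper 95% Poisson limit is 0.0182 CPM. Tgm3 had 13 UMIs. Prr9 and Fam25c were present there at 696 and 25.1 CPM, below the 1796 and 54.99 CPM of the TripleTg low cells.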

How the data were processed

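UMI counts per gene and cell were deposited by the authors as 1 matrix per library, made with Cell Ranger 6.0.2 on mm10 with transgene sequences added, according to the processing notes and methods; the DoubleTg file header names a later release. The study's limits were applied (more than 200 genes, fewer than 7000, mitochondrial share below 15%); no TripleTg cell lay outside them, and 10598 of 12072 deposited DoubleTg barcodes were kept, more than the study states for that library. No doublet caller was run. UMIs were summed per group and scaled to CPM, with no scaling for gene length, since a molecule is counted at its 3′ end. Log2 ratios used sums under 3 UMIs set to 3 and carry 95% conditional binomial intervals; CPM carry exact Poisson and shares exact binomial intervals. Genes needed 5 CPM in either group. Members and lists were chosen with earlier results of these data known, and 4 lists were added after seeing the values. Named were all alpha-defensins, list members at 5 CPM or more, and the 15 highest and 15 lowest ratios at 50 CPM or more in either group; genes named beside these were chosen after their values were seen. Thinning drew 5000 UMIs per cell. GENCODE M21 gave positions for 27645 of 28000 features. edgeR 4.0.16 gave TMM factors; Python 3.11.15 with scipy 1.17.1 did the rest, tested on simulated data. Some genes are not reported here.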

Additional observations from a re-analysis of the deposited data

Results flagged for a closer look

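A single DoubleTg cell met the rule, although that library was not the one described. It had 93.1 UMIs of the 6 genes per 10000 (95 of 10208 UMIs), its barcode did not occur in the TripleTg library, and no other DoubleTg cell of the gates reached 10.

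Alpha-defensin UMIs lay above the DoubleTg level in TripleTg cells outside the luminal gates. The family summed to 229 CPM in the TripleTg immune gate against 0.675 in the DoubleTg immune gate (2 UMIs), and to 506 against 22.8 CPM in the stromal gates, where 18 of 851 TripleTg cells reached 50 per 10000. Thinned to 5000 UMIs per cell, the levels were 195 against 0 CPM in the immune gates and 254 against 16.1 CPM in the stromal gates. The source of these UMIs was not tested.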

How the results depend on the processing

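Of the 154 listed or named genes past 2-fold, 153 or more kept their direction under each of 14 alternatives; the exception was Spink1, at 0.027 without seminal vesicle cells and 0.12 with stricter luminal limits added. Fewest stayed past 2-fold with those limits, 105. The count of higher genes was 2184 with no CPM filter and 167 at 50 CPM, and that of lower genes 3263 and 151, 1421 when thinned and 1495 as a mean over cells. TMM shifted all log2 ratios by 0.22, which gave 662 higher and 639 lower genes. The Wnt target median was 0.27 against all other gated cells, 0.64 against cells under 2 per 10000, 0.29 thinned, 0.62 with TMM, 0.11 as a mean over cells, 0.14 without seminal vesicle cells, -0.052 among cells with high Wnt targets, 0.21 with the strict limits added, 0.29 without cells over 60000 UMIs. The cells with high Wnt targets were chosen on those same genes. The squamous median was 0.91 at 100 or more per 10000, 0.69 against all other gated cells, 0.064 thinned, 0.68 with TMM, 0.17 without seminal vesicle cells, 0.23 among cells with high Wnt targets, 1.14 with Epcam and keratin limits, 0.84 with the strict limits added. The interferon and MHC median was -2.32 without cycling cells, -1.55 with the strict limits added, and the secretory pathway median -0.60 against all other gated cells, -0.76 against cells under 2 per 10000, -0.86 thinned, -0.66 scaled without alpha-defensins, -0.48 with TMM, -0.78 without seminal vesicle cells, -0.80 with the strict limits added, -0.82 without cells over 60000 UMIs. The cause was not tested. Thinning gave family levels of 25832 CPM in high, 5094 in intermediate, 471 in low, 744 in basal-gate, 195 in immune-gate and 254 in stromal-gate cells, and shares of cells with a rule-gene UMI of 46.0%, 37.1%, 44.6% and 44.8% in the last 4; the intermediate share was 99.9%. The settings without barcodes in both libraries, with stricter luminal limits added and without cells over 60000 UMIs were chosen after seeing the data. No paired analysis was possible because each genotype has 1 library, and for the same reason no replicate could be left out. Depth limits the scarce genes most, since a gene at the limit of 5 CPM has few UMIs in any 1 cell.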

Other observations

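One alpha-defensin feature was scarce in TripleTg and the most abundant of the family in the DoubleTg pool. AY761184 (Defa39 in RefSeq) had 5 UMIs in the high cells and 34 in the low cells, levels whose counting intervals overlap, and 1013 UMIs (4.999 CPM, 95% Poisson interval 4.70 to 5.32) in the DoubleTg pool, where it made up 46.5% of all alpha-defensin UMIs. The 6 rule genes gave 125 UMIs there, 95 of them in 1 of the 6357 cells.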
